A study of Mus musculus with 5 samples.

Results

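Oxidative phosphorylation genes of the nuclear genome were followed in bone marrow haematopoietic stem cells (HSCs), the cells that maintain blood formation throughout life. Members were chosen by symbol: the structural subunits named Nduf (A, B, C, S and V series), Sdh, Uqcr, Cox4 to Cox8 and Atp5, without assembly factors. This gave 90 of 55335 genes, with 41 for complex I, 4 for complex II, 8 for complex III, 19 for complex IV and 18 for complex V. Transcript levels were measured by RNA sequencing in 3 wild-type and 2 RankCre-ki libraries, each a pool of sorted HSCs (lineage-negative Kit+ Sca-1+ CD48- CD150+) from mice at 3 weeks of age, with the strain given as C57BL/6J. The mice labelled RankCre-ki have a Cre knock-in at the Rank locus together with 1 floxed and 1 null allele of Csf1r, the receptor for macrophage colony-stimulating factor. In the study the Cre recombines in embryonic macrophages but not in HSCs, which therefore keep the floxed beside the null allele, and the mice are osteopetrotic because osteoclasts are missing along with those macrophages. Per the study's methods the Csf1r null line was kept on a C3H/HeJ background, so strain background and genotype cannot be told apart here. The comparison asks how HSCs that develop without these macrophages differ from wild-type HSCs. How many mice each pool came from is not given in the sources used here, so the p-values measure only the spread between these libraries.

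Oxidative phosphorylation takes place in the inner mitochondrial membrane. Complex I oxidises NADH and complex II oxidises succinate, both pass electrons through ubiquinone to complex III, and cytochrome c carries them on to complex IV, which reduces oxygen. Complexes I, III and IV pump protons, and complex V, the ATP synthase, lets them flow back through its c ring to make ATP. Most subunits are nuclear genes, and the mitochondrial genome encodes the others. Resting HSCs are known for relying on glycolysis more than their progeny do.

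Values are TPM, a length-corrected transcript share within each library, so levels can be set side by side between genes. Changes are RankCre-ki minus wild-type on the log2(TPM + 1) scale with a moderated limma test and Benjamini-Hochberg adjustment over 13981 tested genes, those reaching 1 TPM in 2 or more libraries. Calls needed an adjusted p no larger than 0.1 together with a log2 fold change beyond 2 in either direction. By their library names, wild-type replicate 1 belongs with RankCre-ki replicate 2 (name series 1), and the other 3 libraries belong together (name series 2). The libraries differed in composition: 9021 to 11084 genes reached 1 TPM in wild-type and 12801 and 16386 in RankCre-ki, and mitochondrially encoded genes held 14.7% to 21.02% of wild-type TPM against 10.7% and 8.21%. RankCre-ki replicate 2 is labelled female, yet Y-linked transcripts summed to 105 TPM, against 76.1 in wild-type replicate 1, labelled male, and under 1 TPM in the other 3, so values are given by library and can be read without it. Of 16 markers of lineage cells removed by the sort, 5 were at 0 in all libraries, Ly6g among them. The list summed to 138 to 149 TPM in wild-type and to 303 and 838 TPM in RankCre-ki, mostly haemoglobin. At an unadjusted limma p under 0.05, 4 of the 6 tested markers were higher in RankCre-ki and 0 lower. These were Hbb-bt, Cd48, Klrb1c and S100a8, none of them called. Cd48, which the sort gates against, was at 0 in wild-type and at 4.92 and 5.62 TPM in RankCre-ki. S100a8 and Klrb1c were under 0.1 TPM in every wild-type library, and S100a8 was at 8.31 and 12.9 TPM in RankCre-ki. The part of these markers in the results was not tested.

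Of the 90 members, 81 passed the filter. The 9 others were 3 processed pseudogenes (Ndufa11b, Ndufs6b and Cox6c2), the hypoxia-induced Ndufa4l2, the tissue-restricted isoforms Cox6a2, Cox7b2, Cox8b and Cox8c, and a second Atp5o identifier. The fourth pseudogene, Ndufb4c, is tested, but its reads cannot be separated with certainty from those of Ndufb4. Together the tested members held 3.52%, 3.00% and 3.02% of the TPM in wild-type replicates 1 to 3 and 2.66% and 3.13% in RankCre-ki replicates 1 and 2. The groups overlapped in this total, which was a mean of 31800 TPM with an SD of 2971 (n = 3) for wild-type and of 28960 TPM with an SD of 3311 (n = 2) for RankCre-ki. A lower level cannot be told apart from fewer expressing cells in such pools.

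Promoters of the members were read from RefSeq (build GRCm38.p6) as windows from 250 bases before to 50 bases after the start, and 69 of the 89 member names had one. Motifs were searched on both strands: GCATGCGC for NRF1, a regulator of respiratory genes, CCGGAAGT for ETS factors such as GABPA, and AAGATGGC for YY1. The NRF1 motif was present for 10 members (14.5%) against 3.05% of 27025 symbols, the ETS motif for 5 (7.25%) against 4.31%, and the YY1 motif for 10 (14.5%) against 3.19%. At least 1 of them occurred for 24 members (34.8%) against 9.91% of all symbols. A match is a description of letters, not of binding. The sites below belong to members whose levels are described next, written 5′ to 3′ in the direction of the gene with the motif in capitals, at chr4:140961207-140961234 for Sdhb, chr2:36049329-36049356 for Ndufa8, chr5:115349101-115349128 for Cox6a1, chr15:102671070-102671097 for Atp5g2, chr3:51408916-51408943 for Ndufc1, chr5:145191501-145191528 for Atp5j2 and chr2:90904704-90904731 for Ndufs3. Sdhb lies on the plus strand and the others on the minus strand. The capitals of Ndufs3 are the ETS motif read on the opposite strand, and in Cox6a1 and Atp5g2 a second NRF1 match on the opposite strand overlaps the capitals.
Sdhb, NRF1: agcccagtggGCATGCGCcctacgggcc
Ndufa8, NRF1: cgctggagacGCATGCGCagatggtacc
Cox6a1, NRF1: ggaacggggcGCATGCGCgctctcgctc
Atp5g2, NRF1: ctccggccgcGCATGCGCagagccttcc
Ndufc1, YY1: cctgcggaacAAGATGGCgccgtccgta
Atp5j2, YY1: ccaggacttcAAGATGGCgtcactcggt
Ndufs3, ETS: gcacatttccACTTCCGGtccgtgccct

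Complex I transcripts were lower in both RankCre-ki libraries than in each wild-type library. Their sum was 13206, 12478 and 12471 TPM for wild-type replicates 1 to 3, against 9236 and 9601 TPM for RankCre-ki replicates 1 and 2. The groups did not overlap, and the means were 12719 ± 422 TPM (wild-type, SD, n = 3) and 9419 ± 258 TPM (RankCre-ki, SD, n = 2). Within name series 1 the sum went from 13206 to 9601 TPM, and within name series 2 from 12478 and 12471 to 9236 TPM. The sums of the other complexes overlapped between genotypes, with 7852 ± 1189 TPM (wild-type, SD, n = 3) and 8498 ± 890 TPM (RankCre-ki, SD, n = 2) for complex V. Complex IV summed to 6335 ± 823 and 6735 ± 1512 TPM, complex III to 3950 ± 870 and 3574 ± 857 TPM, and complex II to 945 ± 293 and 734 ± 206 TPM, in wild-type and RankCre-ki. Leaving out Ndufa4, a subunit now placed with complex IV, and the pseudogene Ndufb4c, complex I summed to 11880 ± 356 and 8694 ± 149 TPM, again with no overlap. The 2 most abundant subunits, Ndufa12 and Ndufb8, are among those that were lower. Leaving out all 4 of these genes, the sum did not overlap either, at 9529 to 10624 TPM against 7620 and 8220 TPM.

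**Figure D1:**
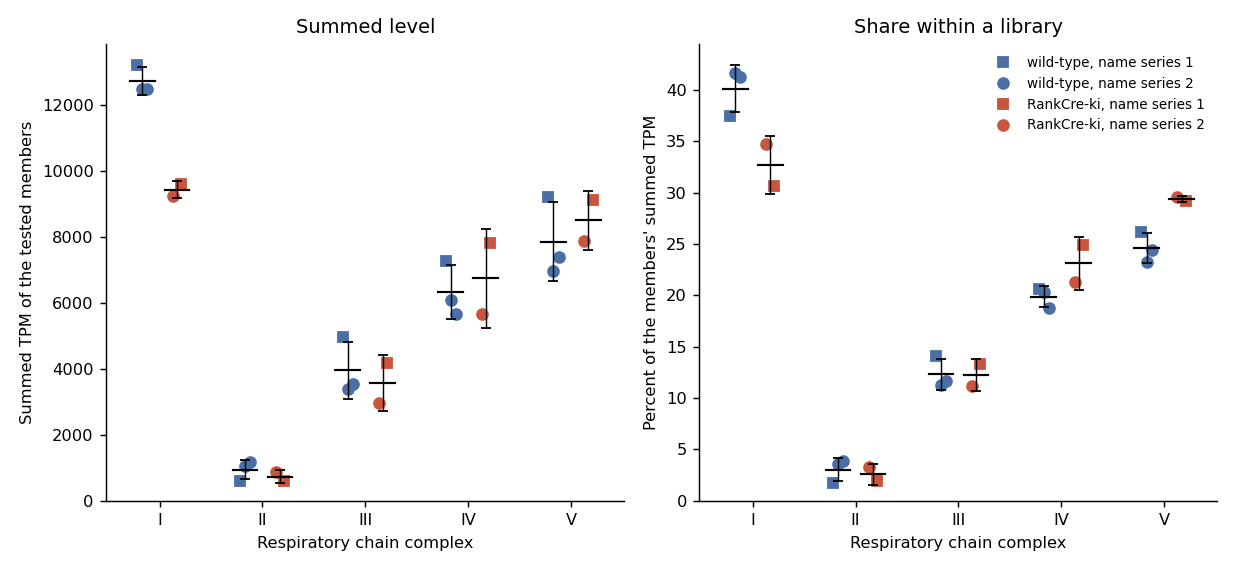
Summed TPM of the tested members of each complex (left) and the share of each complex in the members' summed TPM (right, percent), one point per library, with the mean and SD of each genotype as black lines. Complex I lies at 12471 to 13206 TPM in wild-type and at 9236 and 9601 TPM in RankCre-ki, and complex V takes 23.3% to 26.1% of the members' TPM in wild-type and 29.2% and 29.6% in RankCre-ki.

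Shares within a library do not depend on how libraries are scaled to each other by a constant factor. Complex I made up 37.5%, 41.6% and 41.3% of the members' TPM in wild-type replicates 1 to 3, and 34.7% and 30.7% in RankCre-ki replicates 1 and 2. Complex V made up 26.1%, 23.3% and 24.4%, against 29.6% and 29.2%. The groups were apart in both shares, in opposite directions. The ratio of complex I to complex V transcripts was 1.43, 1.79 and 1.69 in wild-type and 1.17 and 1.05 in RankCre-ki, with no overlap. Complex IV took 18.8% to 20.6% of the members' TPM in wild-type and 21.3% and 24.9% in RankCre-ki, again without overlap. Complex III and complex II shares overlapped.

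No member was called between the genotypes by limma (0 of 81), and across all 13981 tested genes 0 were called (0%), with a smallest adjusted p of 0.521. At the same cut-offs the study reports genes in both directions from its own count-based test. The 0 therefore holds for limma on log2(TPM + 1) only. At an unadjusted p under 0.05 there were 3 members, all complex I subunits and all lower in RankCre-ki, beside 0.529% of tested genes that were lower and 6.34% that were higher at that p. In the direction of higher levels, 0 members passed it. With the name series as a block in the fit, 13 members passed, with 0 called. Of these 9 were lower (11.1%, beside 1.19% of all tested genes and 5.14% of those averaging 50 TPM or more). The 4 others were higher (4.94%, beside 8.89% and 8.47%). With quantile normalization 3 were lower (3.66%, beside 1.26% and 3.37%) and 2 higher (2.44%, beside 3.49% and 4.78%), again with 0 called. The groups did not overlap for 14 members that were lower in RankCre-ki (17.3%), beside 3.71% of all tested genes, and for 8 that were higher (9.88%), beside 18.8%. Most tested genes have low levels, and among the 2551 tested genes averaging 50 TPM or more the shares were 9.49% lower and 14.0% higher. With quantile normalization 9 members were lower and 9 higher without overlap (10.98% each), beside 11.3% and 10.8% of all tested genes. With median-ratio size factors 33 were lower (40.7%) and 2 higher (2.47%), beside 9.05% and 11.7%, and among genes averaging 50 TPM or more 25.1% and 5.14%. The median log2 fold change was -0.03 over the members, 0.52 over all tested genes and 0.14 over those with at least 50 TPM. The median of all genes moved with the scaling, to 0.17 with median-ratio size factors and to -0.04 with quantile normalization (members -0.54 and -0.05), so that directions of single genes are relative to it.

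**Figure D2:**
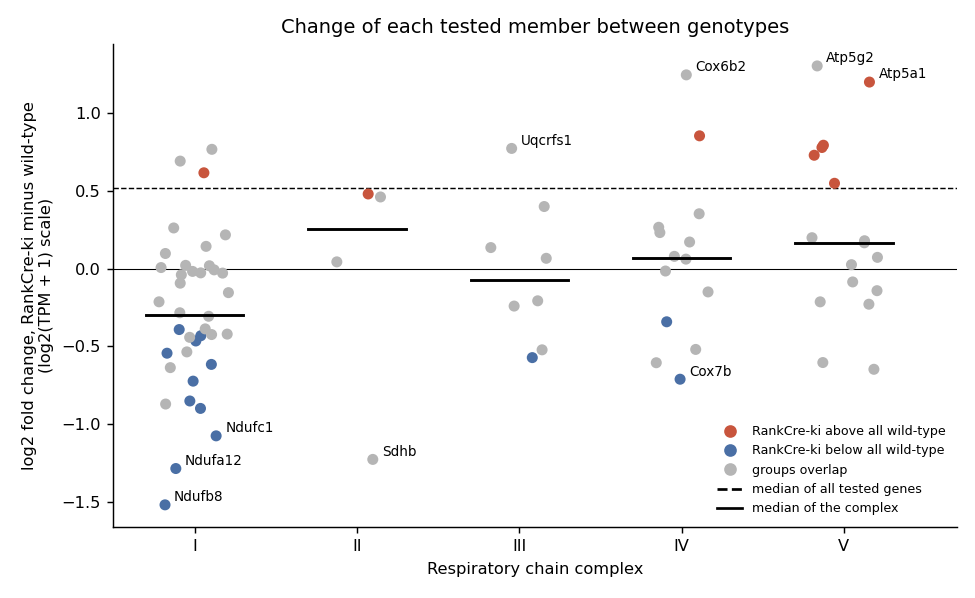
The log2 fold change (RankCre-ki minus wild-type, log2(TPM + 1) scale) of each of the 81 tested members by complex, with the median of each complex as a solid line and that of all tested genes (0.52) as a dashed line. Blue points, whose RankCre-ki libraries lie below all wild-type libraries, number 11 of 38 in complex I and 0 of 17 in complex V, and red points, above all wild-type libraries, number 1 and 5.

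Within complex I, 11 of 38 members were below all wild-type libraries in RankCre-ki and 1 above. The 28.9% below stand beside 3.71% of all tested genes and 9.49% of those averaging 50 TPM or more. With quantile normalization 7 were below (18.4%, beside 11.3% and 12.3%) and 2 above (5.26%, beside 10.8% and 14.2%). With median-ratio size factors 21 were below (55.3%, beside 9.05% and 25.1%) and 0 above. Of the 38, 28 had a negative and 10 a positive fold change, with a median of -0.30. The median was -0.33 within name series 1 and -0.33 within name series 2, and 20 members were lower in both. The accessory subunits, which surround the catalytic core, had a median of -0.39 over 29 members. Of these 10 were lower with no overlap, beside the same 3.71% of all tested genes. They summed to 10476 ± 647 TPM in wild-type (SD, n = 3), against 7388 ± 392 TPM in RankCre-ki (SD, n = 2). The 7 nuclear core subunits, which hold flavin and iron-sulfur clusters or the ubiquinone site, had a median of 0.10, and their sums overlapped, at 1404 ± 294 and 1306 ± 242 TPM. Among them Ndufs3, of the ubiquinone arm, was at 196, 226 and 246 TPM in wild-type and 181 and 98.6 TPM in RankCre-ki. Both RankCre-ki libraries lay below all wild-type libraries, and the gene was named after its values were seen.

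The 3 members at an unadjusted p under 0.05 were accessory subunits. Ndufa12 (ENSMUSG00000020022, chr10:94198720-94221443, plus strand) encodes a subunit of the matrix arm, and was at 1019, 1291 and 1029 TPM in wild-type and 523 and 393 TPM in RankCre-ki. The log2 fold change of Ndufa12 came to -1.29 ± 0.37 (SE; limma adjusted p = 0.521). Ndufb8 (ENSMUSG00000025204, chr19:44548572-44555440, minus strand), a subunit of the membrane arm, was at 644, 907 and 973 TPM against 445 and 187 TPM, a log2 fold change of -1.52 ± 0.48 (SE; limma adjusted p = 0.521). Every RankCre-ki library was below every wild-type library for both genes, and both were lower within each name series, by -1.37 and -1.14 for Ndufa12 and by -1.78 and -1.07 for Ndufb8. Ndufc1 (ENSMUSG00000037152, chr3:51404677-51408988, minus strand), whose YY1 motif is printed above, was at 747, 537 and 375 TPM against 221 and 287 TPM, a log2 fold change of -1.08 ± 0.44 (SE; limma adjusted p = 0.684). None of the 3 passed the adjusted threshold. Ndufa8, whose NRF1 motif is printed above and which was named after its values were seen, was at 373, 473 and 308 TPM against 180 and 243 TPM, also without overlap.

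At the other end of complex I, Ndufs4, an accessory subunit of the matrix arm, had the highest fold change of the complex. Wild-type replicate 3, at 151 TPM, lay between the RankCre-ki values of 153 and 121 TPM, replicate 2, at 111 TPM, was just below them and replicate 1 lower still, so that the log2 fold change was 1.98 within name series 1, 0.24 within name series 2 and 0.77 ± 0.73 (SE) over all libraries. The groups overlapped. Ndufs1, the large iron-sulfur subunit and the complex I member with the lowest mean level, was at 59.5, 40.3 and 102 TPM against 69.5 and 45.2 TPM, with no separation. Ndufa4 overlapped, at 533 to 574 TPM in wild-type and at 471 and 557 TPM in RankCre-ki.

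Complex II, which also works in the tricarboxylic acid cycle and has no mitochondrially encoded subunit, showed different patterns among its 4 genes. Sdhb, the iron-sulfur subunit, was at 251, 680 and 659 TPM in wild-type and 292 and 145 TPM in RankCre-ki, a log2 fold change of -1.23 ± 0.58 (SE; limma adjusted p = 0.791). Wild-type replicate 1 lay within the RankCre-ki range, and the value was lower within each name series (-0.79 and -1.19). The membrane anchor Sdhc was at 76.7, 67.7 and 79.3 TPM against 100.1 and 108 TPM, with no overlap and a log2 fold change of 0.48 ± 0.48 (SE) that was -0.024 with median-ratio size factors. Sdha, the flavoprotein, stood out in RankCre-ki replicate 1, with 284 TPM against 95.3 to 178 TPM in the 4 other libraries. The second anchor, Sdhd, overlapped, at 189 to 246 TPM in wild-type and 204 and 236 TPM in RankCre-ki.

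Complex III members overlapped between genotypes except Uqcrq, a small subunit, which was at 375, 368 and 412 TPM in wild-type and 186 and 358 TPM in RankCre-ki, with a log2 fold change of -0.57 ± 0.44 (SE). Uqcrfs1, the Rieske iron-sulfur protein, had the highest fold change, 0.77 ± 0.59 (SE), at 57.7, 139 and 192 TPM against 221 and 178 TPM. Uqcrh and Uqcrb were its most abundant members. Uqcrh, the hinge protein, reached 1584 TPM (wild-type) and 1053 TPM (RankCre-ki) in name series 1, and lay at 542 to 681 TPM in the 3 libraries of name series 2. Uqcrb was at 581 to 704 TPM in wild-type and 695 and 750 TPM in RankCre-ki. Uqcrc2, a core protein with the lowest mean of the complex, was at 66.8, 178 and 146 TPM against 136 and 185 TPM.

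Complex IV exists with alternative isoforms in different tissues, and the HSC libraries held mainly the widespread ones. Cox4i1 supplied 94.4%, 98.7% and 97.5% of subunit 4 TPM in wild-type and 94.1% and 99.7% in RankCre-ki, and the remainder was Cox4i2, an isoform linked to low oxygen. Cox4i2 was at 61.4, 14.4 and 19.2 TPM against 59.9 and 4.12 TPM, and its fold change had opposite signs in the name series (-3.61 and 1.79). Cox6b2, known mainly from testis, made up 5.10% to 9.43% of subunit 6b in wild-type and 11.7% and 21.1% in RankCre-ki. Its level was 97.5, 45.6 and 29.2 TPM against 62.1 and 238 TPM, which overlapped, with a log2 fold change of 1.24 ± 0.77 (SE), the highest in the complex. Isoforms of striated muscle were at or near 0: Cox6a2 and Cox8b were listed at 0 in all libraries, and Cox7a1 reached 17.3 TPM in wild-type replicate 3 and 2.38 TPM in RankCre-ki replicate 1 and was at 0 in the others. Cox8c was also listed at 0, and Cox7b2 was below 1.3 TPM throughout.

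Among the widespread complex IV subunits, Cox7b and Cox5b were lower and Cox6a1 higher in RankCre-ki without overlap. Cox7b was at 424, 502 and 393 TPM in wild-type and 273 and 260 TPM in RankCre-ki, a log2 fold change of -0.71 ± 0.38 (SE). Cox5b, named after its values were seen, was at 599.9, 619 and 629.97 TPM against 545 and 433 TPM. Cox6a1, whose promoter holds the NRF1 motif, was at 405, 218 and 384 TPM against 417 and 823 TPM, with 0.85 ± 0.49 (SE). The margin of Cox6a1 was small, since RankCre-ki replicate 1 exceeded wild-type replicate 1 by few TPM. Cox4i1 (762 to 1074 TPM against 951 and 1184 TPM) and Cox6c (635 to 977 TPM against 592 and 863 TPM) were the most abundant, and both overlapped. Cox7a2l, a factor of respiratory supercomplexes, was at 555 to 623 TPM against 571 and 668 TPM, and outnumbered Cox7a2, at 179 to 258 TPM against 218 and 339 TPM, in every library. Cox8a, at 413 to 896 TPM in wild-type and 563 and 847 TPM in RankCre-ki, and Cox6b1, at 462 to 936 TPM and 467 and 887 TPM, both followed the name series.

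In complex V, 5 of 17 members (29.4%, beside the 18.8% of all tested genes) had RankCre-ki libraries above all wild-type libraries, and 0 had them below (beside 3.71%). The median log2 fold change was 0.17, beside 0.52 over all tested genes. No complex V gene reached an unadjusted p under 0.05 in the fit without a block. With the name series as a block 5 did, Atp5a1, Atp5b, Atp5g2 and Atp5g3 higher (23.5%, beside 8.89% of all tested genes) and Atp5k lower (5.88%, beside 1.19%). With quantile normalization 2 did, both higher (11.8%, beside 3.49%), and with median-ratio size factors 1 did, lower (5.88%, beside 2.41%). The F1 head and central stalk, the catalytic part, summed to 2236, 1782 and 2091 TPM in wild-type and 2690 and 2635 TPM in RankCre-ki, with no overlap. The catalytic beta subunit Atp5b (chr10:128083273-128090391, plus strand) was at 317, 592 and 544 TPM against 903 and 665 TPM, and the alpha subunit Atp5a1 at 91.9, 216 and 270 TPM against 470 and 346 TPM. Their log2 fold changes were 0.73 ± 0.43 and 1.2 ± 0.55 (SE; limma adjusted p = 0.881 and 0.763). Atp5d, the delta subunit, was at 138, 139 and 241 TPM against 304 and 270 TPM. These 3 genes were higher within both name series, and were named after their values were seen. With median-ratio size factors 2 of the 17 complex V members (11.8%) were above all wild-type libraries and 4 (23.5%) below, beside 11.7% and 9.05% of all tested genes.

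The c ring of complex V is built from copies of 1 mature protein that Atp5g1, Atp5g2 and Atp5g3 all encode, with different import sequences. Atp5g2 (chr15:102662864-102672352, minus strand), with the overlapping NRF1 motifs shown above, was at 79.0, 118 and 221 TPM in wild-type and 489 and 204 TPM in RankCre-ki. Atp5g3 was at 250.1, 397 and 355 TPM against 569 and 404 TPM. Atp5g1 was at 697, 521 and 478 TPM against 430 and 538 TPM. Only Atp5g3 separated the groups, narrowly, at a log2 fold change of 0.55 ± 0.42 (SE). Atp5g2 overlapped, at 1.30 ± 0.61 (SE; limma adjusted p = 0.782) and changes of 1.35 and 1.59 within the name series. The 3 genes together gave 1027, 1036 and 1054 TPM in wild-type and 1488 and 1146 TPM in RankCre-ki, with no overlap. Atp5g1 supplied 67.9%, 50.3% and 45.3% of this sum in wild-type and 28.9% and 46.9% in RankCre-ki, and Atp5g2 7.70%, 11.4% and 21.01% against 32.9% and 17.8%.

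**Figure D3:**
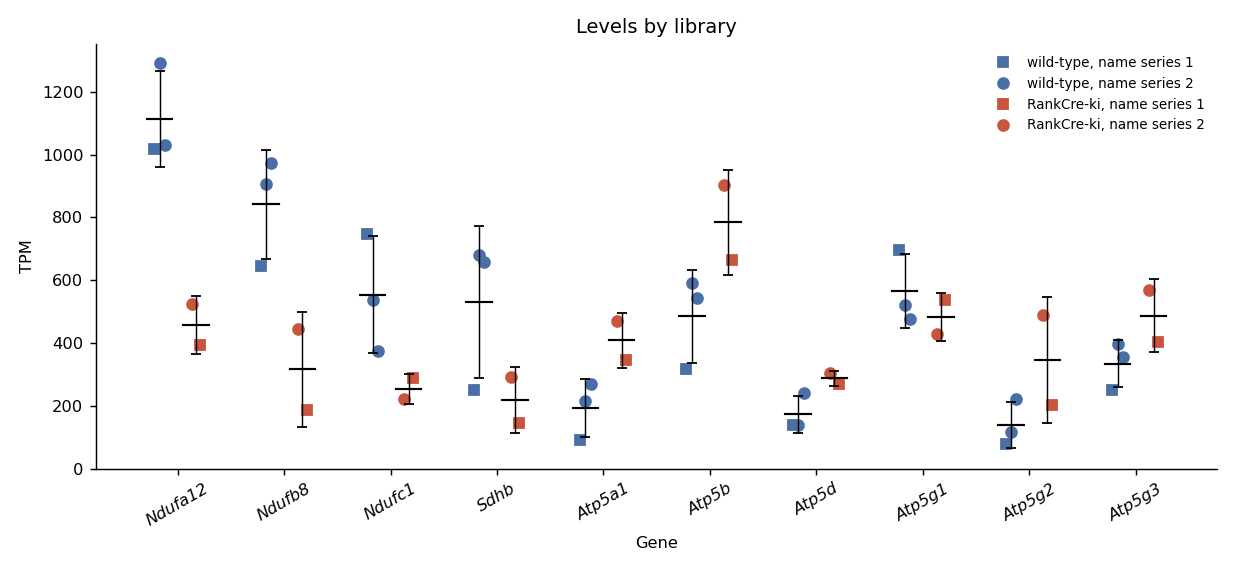
TPM of 10 members in each library, with the mean and SD of each genotype as black lines. Ndufa12, Ndufb8 and Ndufc1 are lower in both RankCre-ki libraries than in all wild-type libraries, Atp5a1, Atp5b, Atp5d and Atp5g3 are higher, and Sdhb, Atp5g1 and Atp5g2 overlap.

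The peripheral stalk of complex V, which holds the F1 head in place, summed to 1983, 2475 and 2443 TPM in wild-type and 1965 and 1823 TPM in RankCre-ki, lower without overlap, although the nearest libraries were at 1983 and 1965 TPM. Its Atp5o (ENSMUSG00000022956), the oligomycin sensitivity subunit, was at 388, 1017 and 847 TPM against 396 and 495 TPM, which overlapped, with a log2 fold change of -0.65 ± 0.49 (SE). Atp5h was the most abundant stalk gene, at 564 to 747 TPM and 573 and 616 TPM. Of the small membrane subunits, Atp5md was at 1616 and 910 TPM in name series 1 and at 462 to 508 TPM in name series 2. Atp5j2, the complex V member with the lowest mean, was at 193, 224 and 193 TPM against 191 and 283 TPM.

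Other differences followed the name series. The 2 libraries of name series 1 are also those with Y-linked transcripts, at 76.1 TPM (wild-type) and 105 TPM (RankCre-ki). The 3 libraries of name series 2 were under 1 TPM. Name series and sex as read from transcripts therefore cannot be told apart here. For 17 of 81 members (20.99%) both name series 1 libraries were above the 3 others, and for 13 (16.0%) below, against 17.1% and 15.9% of all tested genes. Members that were higher in name series 1 were mainly those with short reading frames. For the 37 members with a coding length under 400 bases the median difference between the name series was 0.56 (log2) in wild-type and 0.56 in RankCre-ki, and for the 43 longer ones it was -0.41 and -0.32. Across the 80 members with a coding length, Spearman's rho of coding length with this difference was -0.60 in wild-type and -0.61 in RankCre-ki, given as a description because the genes share libraries. For 2379 tested genes with at least 50 TPM it was -0.21 and -0.24. The genotype fold change was not ordered in this way, with a rho of 0.08 over the members and medians of -0.03 and -0.02 for short and long members. Both name series hold both genotypes, each with 1 RankCre-ki library. Within each the complex I sum was lower in RankCre-ki, and the part of the name series in that sum was not tested.

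**Figure D4:**
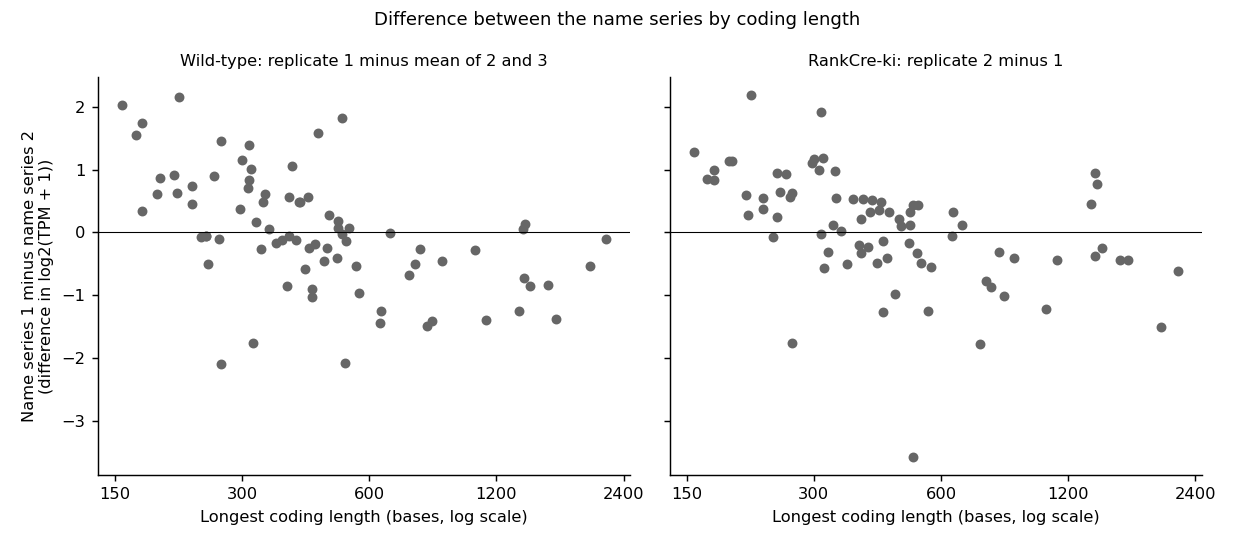
Difference between the name series in log2(TPM + 1) for the 80 tested members with a coding length, against the longest annotated coding length (bases, log axis), for wild-type (left) and RankCre-ki (right). Short members lie mostly above 0 and long ones below, in both genotypes, with Spearman's rho of -0.60 and -0.61.

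The mitochondrial genome encodes 13 further subunits of complexes I, III, IV and V. Their sum was 110778, 198767 and 158013 TPM in wild-type and 99483 and 62379 TPM in RankCre-ki, lower without overlap. It rests largely on mt-Atp8, mt-Atp6 and mt-Cytb, the 3 most abundant in each wild-type library, and was not taken without them. Of the 13, 4 were lower without overlap, these 3 and mt-Nd2, and 2 were higher. The higher ones were mt-Co2, at 7416 to 8351 TPM against 12102 and 9062 TPM, and mt-Nd3, at 155.3 to 665.8 TPM against 701.8 and 698.3 TPM. At an unadjusted p under 0.05, 3 of the 13 were lower and 0 higher: mt-Atp8 with a log2 fold change of -1.34, mt-Atp6 with -1.21 and mt-Cytb with -1.78, none of them called by limma. mt-Atp6 and mt-Atp8 belong to complex V, whose nuclear F1 and c ring sums were higher and whose peripheral stalk sum was lower. The whole nuclear sum of complex V overlapped between genotypes. The median over the 13 was -0.37. Per nuclear member TPM there were 3.14, 6.63 and 5.23 mitochondrially encoded TPM in wild-type and 3.74 and 1.99 in RankCre-ki, and these ratios overlapped. The wild-type library of name series 1 and the RankCre-ki library of name series 1 were the lowest in their groups.

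Assembly factors help to build the complexes without staying in them. Of 18 tested factors for complex I, 13 had a positive fold change, as had 72.3% of all tested genes. Their median was 0.37, beside 0.52 over all tested genes, and 0 reached an unadjusted limma p under 0.05. Their sums overlapped, at 757 ± 161 TPM (wild-type, SD, n = 3) and 734 ± 125 TPM (RankCre-ki, SD, n = 2). Of 22 factors for complex IV, 1 was higher and 1 lower at that p, beside 6.34% and 0.529% of all tested genes, with a median of 0.10. They summed to 2569.9, 1822 and 1998 TPM in wild-type and 1470.3 and 1759.99 TPM in RankCre-ki, lower without overlap. Coa3, which acts early on the mitochondrially encoded Cox1 protein, was at 361, 417 and 352 TPM against 199.7 and 116 TPM (log2 fold change -1.30), and Taco1, a translation activator for the same protein, was listed at 0 in wild-type and at 11.2 and 4.29 TPM in RankCre-ki. Uqcc2 was the 1 of 6 factors of complex III that was lower at that p (beside 0.529% of all tested genes), at 324, 216 and 334 TPM against 130 and 153 TPM. Of 4 factors each for complexes II and V, 0 passed. No factor was called.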

How the data were processed

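Bulk RNA sequencing of 5 libraries was analysed (3 wild-type, 2 RankCre-ki, grouped by sample titles and labels). The authors deposited one TPM value per gene and library, which corrects for transcript length and sums to 1000000 in a library. The tool behind the TPM is not given in the sources used here. For their own test the authors aligned to mm10 and counted with featureCounts 2.0.1. TPM keeps no depth, so no counting error can be given, and the number of libraries limits the precision. The 92 spike-in rows, all 0, were removed. Libraries came from a full-length protocol with more than 1 tagmentation kit, and the link between kit and name series is an inference from their composition.

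Values were compared as log2(TPM + 1), which understates changes of low genes, with limma 3.58.1 in R 4.3.3 (lmFit and eBayes with a trend, two-sided, no covariate). The code was tested on simulated data. With 3 against 2 libraries an exact two-sided permutation test cannot go below 0.2, so sums and shares carry no p. Positions and coding lengths (the longest coding sequence of a gene) came from GENCODE M21 (GRCm38). Promoter sequences are from RefSeq. Other scalings, filters, pseudocounts, blocks and left-out libraries were tried.

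Members and gene lists were chosen with earlier results of these data known. The genes named were the alternative isoforms, per complex the 2 highest and the lowest member by level and the extremes of fold change, members at an unadjusted p under 0.05 and all of complex II. Genes of the other lists are named where their unadjusted p was under 0.05, and other genes were named after their values were seen.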

Additional observations from a re-analysis of the deposited data

How the results depend on the processing

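The complex I sum was lower in RankCre-ki under every scaling, filter and left-out library tried, with a log2 ratio of -0.43 as reported, -0.96 with median-ratio size factors, -0.57 after rescaling without mitochondrially encoded genes and -0.46 to -0.41 with libraries left out. The log2 ratio of complex I to complex V was -0.55 as reported and -0.65 to -0.46 with libraries left out. No alternative called a member. The count at an unadjusted p under 0.05 was 15 with median-ratio size factors, 5 with quantile normalization, 5 without mitochondrially encoded genes, 13 with the name series as a block, 0 without the trend and 2 to 6 with libraries left out. Replicate numbers did not pair the samples (same-numbered deviations correlated at -0.38 and -0.20), and with the replicate block the count was 0 and the members' median -0.11. Members higher with no overlap numbered 2 with median-ratio size factors (2.47%, beside 11.7% of all tested genes). They numbered 5 without mitochondrially encoded genes (6.17%, beside 16.4%) and 10 to 21 with libraries left out. Members lower with no overlap numbered 33 with median-ratio size factors (40.7%, beside 9.05% of all tested genes) and 20 without mitochondrially encoded genes (24.7%, beside 4.45%). They numbered 9 with quantile normalization (10.98%, beside 11.3%) and 15 to 28 with libraries left out. Fewer libraries overlap more rarely by construction.

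The members' median was -0.54 with median-ratio size factors, -0.16 without mitochondrially encoded genes, -0.12 with the name series as a block and -0.13 to 0.0045 with libraries left out. Its distance from the median of all tested genes, -0.55, was -0.015 with quantile normalization and -0.82 to -0.37 with libraries left out. The log2 ratio of the members' sum was -0.67 with median-ratio size factors and -0.26 to -0.023 with libraries left out. The complex I median was -0.80 with median-ratio size factors, -0.43 without mitochondrially encoded genes and -0.35 to -0.24 with libraries left out. The complex V median, 0.17, was -0.34 with median-ratio size factors, 0.032 without mitochondrially encoded genes, 0.041 with the name series as a block and -0.0018 to 0.48 with libraries left out, the lowest without wild-type replicate 2. The cause was not tested for these.

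Some named members, none of them called, changed sign as follows. Median-ratio size factors gave negative values for Cox4i1 (-0.34), Cox6b1 (-0.45), Cox7a2 (-0.24), Cox7a2l (-0.43), Cox8a (-0.28), Sdhd (-0.46), Sdhc (-0.024), Sdha (-0.045), Uqcrb (-0.37), Uqcrh (-0.44), Uqcrc2 (-0.11) and Atp5j2 (-0.31), quantile normalization for Cox4i1 (-0.030), rescaling without mitochondrially encoded genes for Cox6b1 (-0.073), Cox7a2l (-0.055), Sdhd (-0.091) and Uqcrh (-0.068) and the name series as a block for Cox6b1 (-0.091) and Uqcrh (-0.12). The replicate block changed the sign of Cox6b1 (-0.031), Cox7a1 (0.88), Ndufs1 (0.19) and Uqcrh (-0.22). With libraries left out the values spanned -2.39 to 1.18 for Cox4i2, -0.40 to 0.52 for Cox6b1, -0.053 to 0.58 for Cox7a2, -1.22 to 0.36 for Cox7a1, -0.035 to 0.19 for Cox7a2l, -0.063 to 0.53 for Cox8a, -0.21 to 0.026 for Ndufa4, -0.47 to 0.19 for Ndufs1, -0.062 to 0.15 for Sdhd, -0.29 to 1.21 for Sdha, -0.25 to 0.55 for Uqcrh, -0.021 to 0.68 for Uqcrc2, -0.42 to 0.12 for Cox6c, -0.51 to 0.49 for Atp5md and -0.083 to 0.48 for Atp5j2. The depth of sequencing is unknown from TPM.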

Other observations

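Of 13 genes of the tricarboxylic acid cycle, 10 had a positive fold change, beside 72.3% of all tested genes. The median was 0.60 beside 0.52 over all tested genes, and 0 reached an unadjusted limma p under 0.05. Their sums overlapped, at 1511 ± 522 TPM in wild-type (SD, n = 3), against 1522 ± 294 TPM in RankCre-ki (SD, n = 2). Of 12 genes of pyruvate dehydrogenase, its kinases and carriers, 2 were higher at that p, beside 6.34% of all tested genes, and 0 lower. Pdk4, a kinase that switches the enzyme off, was at 0.3 TPM or less in wild-type and at 2.0 and 5.6 TPM in RankCre-ki (log2 fold change 2.02), and Pdp2, a phosphatase that switches it on, was also near 0 in wild-type and at 2.3 and 3.1 TPM in RankCre-ki (1.65). No gene of either list was called.

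Of 13 tested regulators of respiratory genes, 9 had a positive fold change, beside 72.3% of all tested genes. Their median was 0.68, beside 0.52 over all tested genes, and 0 reached an unadjusted limma p under 0.05. Of 7 mobile carriers and related genes 0 did, with a median of -0.20, and of 3 tested ADP, ATP and phosphate carriers 0, with a median of 0.50.

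Markers checked the labelled cell type. All 16 HSC identity genes passed the filter. At an unadjusted limma p under 0.05, 3 were higher in RankCre-ki (Gata2 and Procr among them) and 0 lower, beside 6.34% and 0.529% of all tested genes. Of 13 macrophage and osteoclast markers, Adgre1 and C1qc were at 0 in all libraries, the list summed to 21.3 to 55.9 TPM in wild-type and 55.2 and 59.7 TPM in RankCre-ki, and Csf1r itself, the 1 marker of the list at an unadjusted limma p under 0.05, was at 0 to 2.39 TPM against 17.5 and 6.46 TPM. Endothelial markers summed to 79.7 to 141 TPM and 84.8 and 136 TPM, and stromal and osteoblast markers to 0.29 to 3.47 TPM and 5.26 and 7.12 TPM. Their part in the respiratory values was not tested.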
